A study of Mus musculus with 6 samples.

Results

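The interferon response genes described here are 31 mouse genes that interferons of type I or type II are known to induce, chosen by symbol from a list that states no threshold on values; it was drawn up with earlier results of these hearts known. All 31 were found among the 20254 genes of the table, and 30 of them reached a normalised value of 10 in at least 3 libraries and were tested; Cxcl10 did not. The hearts came from 6 C57BL/6 mice, 3 wild-type (WT) and 3 knockout (KO) for Trdn-as, a long non-coding RNA named as antisense to Trdn, the gene of the calcium release protein triadin. In each genotype replicates 1 and 2 were 14 months old and replicate 3 was 5 months old, so each genotype has 1 heart at 5 months. RNA was taken from frozen whole hearts, no treatment or infection is given in the labels, and neither the knockout allele nor pooling of animals is described in the sources used here.

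Interferons signal through paired cell surface receptors and the JAK kinases. Type I interferon acts mainly through a complex with STAT2 and IRF9 that binds the interferon-stimulated response element (ISRE), and type II interferon, interferon gamma, acts mainly through the gamma-activated site (GAS). The induced proteins block viral replication, add and remove the ubiquitin-like protein ISG15, attack intracellular vacuoles, draw in T cells and reshape the proteasome for antigen presentation. In the heart this programme is best known from viral myocarditis, and cardiomyocytes, fibroblasts, endothelial cells and macrophages can all express it.

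Promoter sequence was searched for interferon response motifs, and neither motif stood in every member with a window. As the members were listed as interferon-induced genes, their share with such letters is not independent of that choice. RefSeq promoter windows on GRCm38.p6 (250 bases before to 50 after an annotated start) were matched by symbol for 24 of the 31 members, with 26 windows; Oas2, Mx1, Mx2, Zbp1, Ifi27l2a, Rtp4 and Usp18 had none. Both strands were searched for GAAANNGAAA, the core letters of the ISRE, and for TTCNNNGAA, the core letters of the GAS, which reads the same on both strands. At least 1 GAAANNGAAA match stood in the windows of 15 of the 24 members, against 3.99% of the 27025 genes with a window. TTCNNNGAA stood in those of 6 of the 24, against 9.55% of all genes. Bst2, Gbp7, Igtp and Oas1a held both motifs, and Cxcl9, Ifi44, Ifi47, Irf7, Oasl2, Psmb9 and Xaf1 held neither. A match is a description of the letters and not a shown binding site, and a missing match says only that these letters are not in that window.

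The stretches before the start of 5 members with ISRE-type matches are shown first, because they place the letters that an interferon-activated factor could read; capitals mark the motif matches, and bases that lie in an annotated exon were left out. In Isg15 the 3 matches overlap one another from 78 bases before the start. Ifit3 and Ifit3b, neighbouring copies on chromosome 19, carry the same pair of matches (from 156 and 122 bases before the start in Ifit3, and from 188 and 154 in Ifit3b). In an end-to-end alignment of their 300-base windows 259 of 340 columns (76.2%) were identical. Gap columns count among the 340, and the copies are shifted against their annotated starts, so this share understates the likeness of the aligned bases. In Igtp and Bst2 the GAS-type match stands just before or runs into the ISRE-type match.
Isg15, chr4:156200819-156201018, minus strand: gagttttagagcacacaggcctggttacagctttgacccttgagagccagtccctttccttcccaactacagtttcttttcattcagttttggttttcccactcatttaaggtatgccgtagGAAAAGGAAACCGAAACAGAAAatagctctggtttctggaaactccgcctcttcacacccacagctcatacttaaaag
Ifit3, chr19:34583329-34583528, plus strand: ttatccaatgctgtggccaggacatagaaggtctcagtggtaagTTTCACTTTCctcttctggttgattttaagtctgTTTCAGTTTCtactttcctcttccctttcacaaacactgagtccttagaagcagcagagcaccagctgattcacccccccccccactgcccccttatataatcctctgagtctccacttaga
Ifit3b, chr19:34607757-34607956, plus strand: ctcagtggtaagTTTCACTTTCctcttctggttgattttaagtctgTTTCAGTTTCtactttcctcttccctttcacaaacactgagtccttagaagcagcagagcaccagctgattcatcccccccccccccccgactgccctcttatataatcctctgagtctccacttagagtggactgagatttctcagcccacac
Igtp, chr11:58199356-58199555, plus strand: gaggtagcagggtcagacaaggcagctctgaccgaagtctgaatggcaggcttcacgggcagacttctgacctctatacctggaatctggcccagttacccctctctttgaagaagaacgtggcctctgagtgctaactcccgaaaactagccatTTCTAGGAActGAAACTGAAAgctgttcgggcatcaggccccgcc
Bst2, chr8:71537473-71537672, minus strand: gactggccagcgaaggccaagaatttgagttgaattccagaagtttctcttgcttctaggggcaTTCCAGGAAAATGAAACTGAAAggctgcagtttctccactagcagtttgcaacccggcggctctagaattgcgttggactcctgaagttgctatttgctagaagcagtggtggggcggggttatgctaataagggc

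The next 4 belong, with Bst2, to the members that differed between 5 and 14 months below. Gbp3 was higher at 5 months and holds 2 overlapping matches, while Irf7, Cxcl9 and Oasl2 were lower at 5 months and hold none. Psmb8, higher at 5 months, had 1 window with TTCCCAGAA from 97 bases before the start, which lies inside its annotated gene and is not printed. With 6 genes, and no window for Ifi27l2a, this split by direction is a description of those genes only.
Gbp3, chr3:142559844-142560025, plus strand: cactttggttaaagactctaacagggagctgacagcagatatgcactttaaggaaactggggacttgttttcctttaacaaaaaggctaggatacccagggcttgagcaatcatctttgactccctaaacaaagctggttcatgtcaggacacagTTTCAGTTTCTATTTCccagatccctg
Irf7, chr7:141266482-141266624, minus strand: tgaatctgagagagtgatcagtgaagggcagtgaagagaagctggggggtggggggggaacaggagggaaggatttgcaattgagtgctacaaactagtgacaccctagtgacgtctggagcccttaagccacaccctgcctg
Cxcl9, chr5:92328080-92328279, minus strand: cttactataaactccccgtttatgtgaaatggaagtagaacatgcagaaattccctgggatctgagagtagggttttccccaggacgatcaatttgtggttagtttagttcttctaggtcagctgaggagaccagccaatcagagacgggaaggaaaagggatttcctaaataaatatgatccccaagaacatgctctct
Oasl2, chr5:114896734-114896933, plus strand: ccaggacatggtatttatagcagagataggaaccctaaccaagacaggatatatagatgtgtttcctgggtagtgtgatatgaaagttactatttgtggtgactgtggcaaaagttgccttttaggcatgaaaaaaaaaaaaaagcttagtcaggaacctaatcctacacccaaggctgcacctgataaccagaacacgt

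Trdn was read as the check of the knockout labels; Trdn-as itself was not analysed here. Its normalised values were 5702, 5600 and 9104 in WT hearts and 3429, 3460 and 5606 in KO, replicates 1 to 3 in order, and each KO library was below the WT library of its number. The fitted difference was −0.71 on the log2 scale (SE 0.10), with an adjusted p of 0.261 in limma over all 13823 tested genes. At 14 months the fitted difference was −0.71 (SE 0.08) and passed the test (limma adjusted p = 0.0476). Normalised totals were 19.8 to 23.5 per library in units of 1e6. Mitochondrially encoded genes took 40.0 to 49.4% of them, least in the 5-month WT heart and most in KO replicate 1. The 4 Y-linked genes Ddx3y, Eif2s3y, Kdm5d and Uty summed to 54.9 and 82.2 in replicate 2 and to 2496 or more elsewhere, so replicate 2 read as female in both genotypes and both 5-month hearts as male. Cardiomyocyte markers (7 genes) were abundant in every library, with sums of 568153 to 1105160. No libraries were duplicates.

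Expression of the interferon response genes was low to moderate in every heart. Their summed values were 4352, 5516 and 5126 in WT hearts and 5214, 5330 and 5373 in KO. WT replicate 1 was the lowest library, and the other 5 lay within a narrow band with both genotypes mixed. Scaled by exon length, the highest mean levels were those of Ifi27l2a (561 per kilobase), a small interferon-induced protein, Bst2 (256), the tetherin that holds virus particles at the cell surface, Igtp (133), Gbp2 (126) and Ifit3 (102). At the other end stood Oas3 (2.46 per kilobase) and the chemokine Cxcl10 (2.28). Whole hearts were sequenced, so fewer cells of a type and less RNA per cell cannot be told apart in any of these values.

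**Figure D1:**
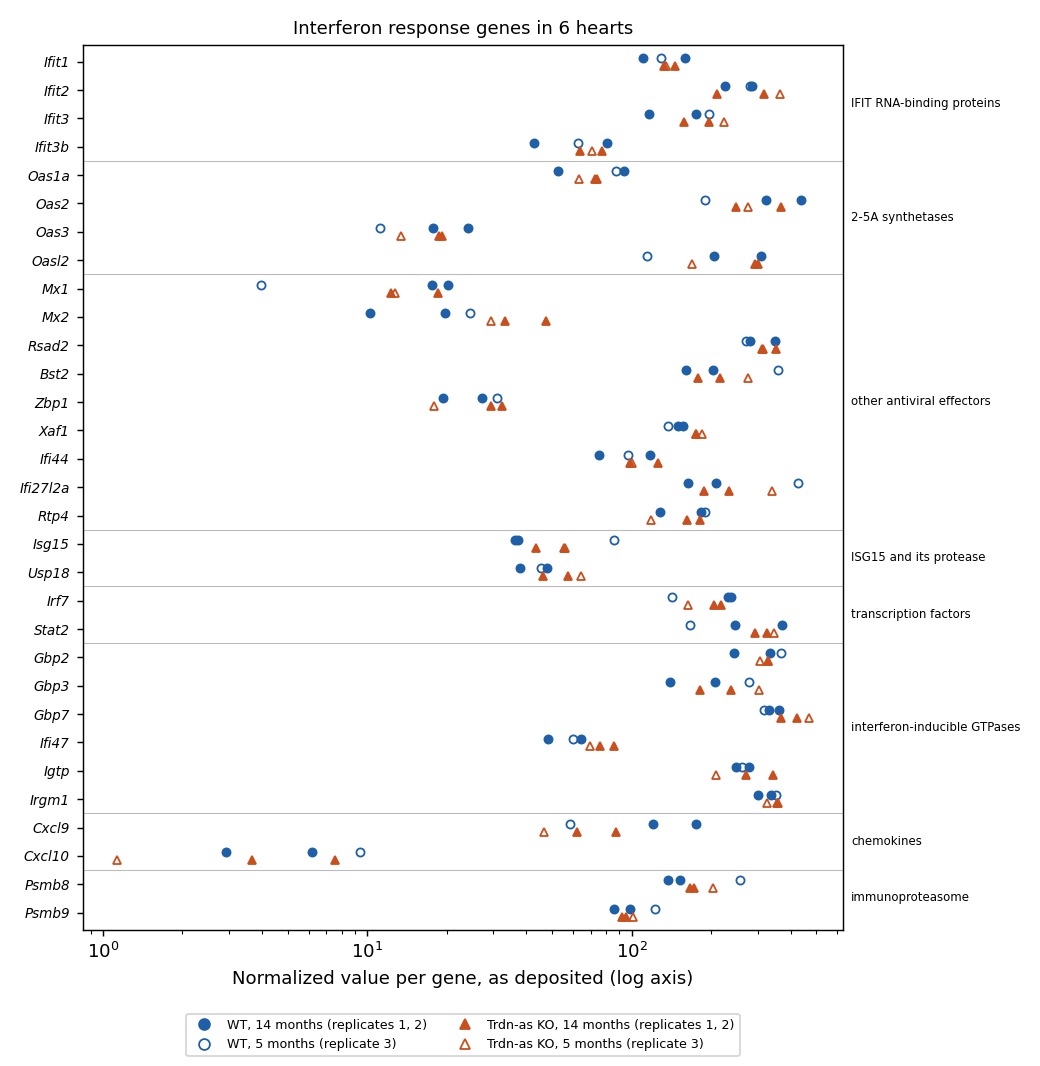
Normalised value of each of the 31 interferon response genes in each library, grouped by role; the value axis is logarithmic, and colour and symbol give genotype and age. In most genes the libraries of both genotypes are mixed, while Cxcl10 stayed under 10 in all 6 libraries.

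None of the 30 tested members differed between Trdn-as KO and WT hearts in the limma fit with age as a covariate. The smallest adjusted p was 0.745, 2 members were under an unadjusted p of 0.05 (Mx2 and Cxcl9), and over all genes 0% passed the adjusted threshold of 0.05 and 6.08% the unadjusted one. Fitted differences were above 0 for 23 members and below 0 for 7, with a median of 0.07 on the log2 scale, beside 46.1% above 0 and a median of −0.02 over all genes tested. All 3 KO libraries were above all 3 WT libraries for 4 members (2.88% of all genes), and below for 0 (2.89% of all genes). As no source says how the hearts were bred or handled, these p-values measure only the spread between these 6 samples.

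**Figure D2:**
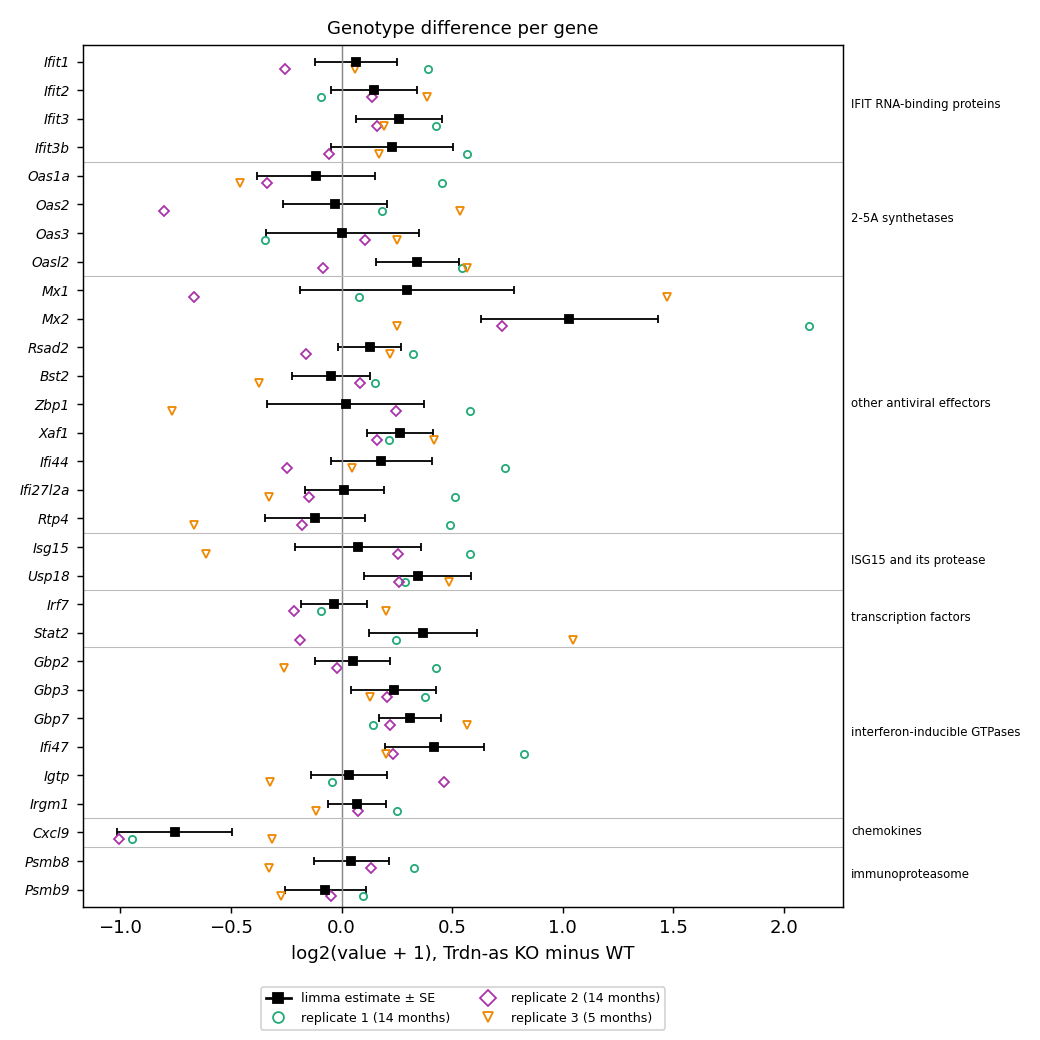
Difference between Trdn-as KO and WT on the log2(value + 1) scale for each tested member, with the limma estimate and its standard error and the 3 same-number differences as points. No estimate passed an adjusted p of 0.05, and the same-number points fall on both sides of 0 for 22 of the 30 genes.

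Mx2 and Cxcl9 had the largest fitted genotype differences, in opposite directions. Mx2 belongs to a family of dynamin-like antiviral GTPases, but GENCODE annotates it as a polymorphic pseudogene, and common laboratory strains such as C57BL/6 are known to carry disabling changes in Mx1 and Mx2; the values are RNA levels only. It read 10.2, 19.7 and 24.6 in WT hearts and 47.6, 33.2 and 29.5 in KO. Every KO value was above every WT value, with means of 36.7 ± 9.55 and 18.2 ± 7.30 (SD, n = 3), and the same-number differences were 2.11, 0.72 and 0.25 on the log2 scale. The fitted difference was 1.03 (SE 0.40), which did not pass the test after adjustment (limma adjusted p = 0.745). Cxcl9, the chemokine that interferon gamma induces to attract T cells, read 120.2, 176 and 58.2 in WT hearts and 62.0, 87.0 and 46.7 in KO. Each KO value was below its WT partner, but the groups overlapped because the 5-month WT heart was lower than 2 of the KO hearts. Its fitted difference of −0.76 (SE 0.26) also had an adjusted p of 0.745 in limma.

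The other members whose KO libraries all stood above WT were Xaf1, Gbp7 and Ifi47. Xaf1, a pro-apoptotic partner of XIAP, read 150.1, 157 and 137 in WT hearts and 175, 175 and 184 in KO. Gbp7, a guanylate-binding GTPase, read 332, 362 and 316 in WT hearts and 367, 421 and 468 in KO. Ifi47, an immunity-related GTPase that targets intracellular vacuoles, read 48.2, 64.6 and 60.3 in WT hearts and 86.2, 76.0 and 69.6 in KO. The means were 148 ± 9.86 and 178 ± 5.35 for Xaf1, 337 ± 23.04 and 419 ± 51.0 for Gbp7 and 57.7 ± 8.52 and 77.3 ± 8.37 for Ifi47 (WT and KO, SD, n = 3). The fitted differences were 0.27 (SE 0.15), 0.31 (SE 0.14) and 0.42 (SE 0.22), each with a limma adjusted p of 0.745. KO exceeded WT within every same-number pair for these, Mx2, Ifit3, Usp18 and Gbp3, 7 members in all (12.0% of all genes), and Cxcl9 was the 1 member below in every pair (14.6% of all genes).

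Of the remaining members of smallest p, Oasl2 and Stat2 overlapped between genotypes. Oasl2, a member of the oligoadenylate synthetase family with a ubiquitin-like tail, read 205, 310 and 114 in WT hearts and 299.8, 292 and 169.6 in KO. Stat2, a factor of the type I interferon complex, read 246, 370.1 and 166 in WT hearts and 292, 325 and 345 in KO. In both genes the 14-month WT replicate 2 was the highest of all libraries and the 5-month WT heart the lowest, and the fitted differences were 0.34 (SE 0.19) and 0.37 (SE 0.24). Usp18, the protease that removes ISG15 and dampens receptor signalling, read 37.8, 47.9 and 45.6 in WT hearts and 46.3, 57.5 and 64.3 in KO. Ifit3, of the IFIT family that binds viral RNA, read 117, 175 and 196 in WT hearts and 158, 196 and 224 in KO. Gbp3, a guanylate-binding GTPase, read 139.7, 206 and 277 in WT hearts and 182, 237 and 304 in KO. The values of these last 3 genes interleaved between genotypes, with adjusted p between 0.745 and 0.758 in limma.

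By role, the interferon-inducible GTPases (Gbp2, Gbp3, Gbp7, Ifi47, Igtp and Irgm1) had 6 of 6 fitted differences above 0, with a median of 0.15. The IFIT genes (Ifit1, Ifit2, Ifit3 and Ifit3b) had 4 of 4 above 0, with a median of 0.19. Ifit3 and Ifit3b share much of their sequence and are not separate readings. Within replicates 1, 2 and 3, KO exceeded WT for 3, 2 and 4 of the 4 IFIT genes. For the 6 GTPases these counts were 5, 5 and 3. Differences were divided for the oligoadenylate synthetases Oas1a, Oas2, Oas3 and Oasl2, with 2 above and 2 below 0 and a median of −0.01, and for the immunoproteasome subunits Psmb8 and Psmb9, with 1 each way. None of these passed the test. Isg15, the ubiquitin-like protein whose attachment marks the type I response, read 37.2, 36.2 and 85.6 in WT hearts and 56.2, 43.3 and 55.7 in KO, higher in KO at 14 months and lower at 5 months. Igtp, the vacuole-targeting GTPase of highest level per length in its group, read 278, 249 and 261 in WT hearts and 270.1, 343 and 209 in KO, with no order by genotype.

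WT replicate 1, a 14-month heart, stood apart in these genes. It was the lowest of the 6 libraries for 15 of the 30 members, 50% against 10.6% of all genes tested, while its neighbour of the same age and genotype, WT replicate 2, was the highest for 9, 30% against 11.1%. WT replicate 1 also had the highest sum of the 5 erythroid markers (Hba-a1, Hba-a2, Hbb-bs, Hbb-bt and Alas2), 66819.9 against 2727 to 19386 in the other libraries, and their part in its low values was not tested. Without WT replicate 1 the genotype differences were above 0 for 14 members and below 0 for 16, with a median of −0.01; without WT replicate 2 they were 24 and 6, with a median of 0.19. The same imbalance showed within pairs: the median same-number difference of the members was 0.33 on the log2 scale in replicate 1, 0.03 in replicate 2 and 0.15 in replicate 3, beside −0.01, 0.00 and −0.06 for all genes. Within the 14-month hearts alone 25 members were above 0 and 5 below, none passed the test (smallest limma adjusted p = 0.597), and 0.101% of all genes did.

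**Figure D3:**
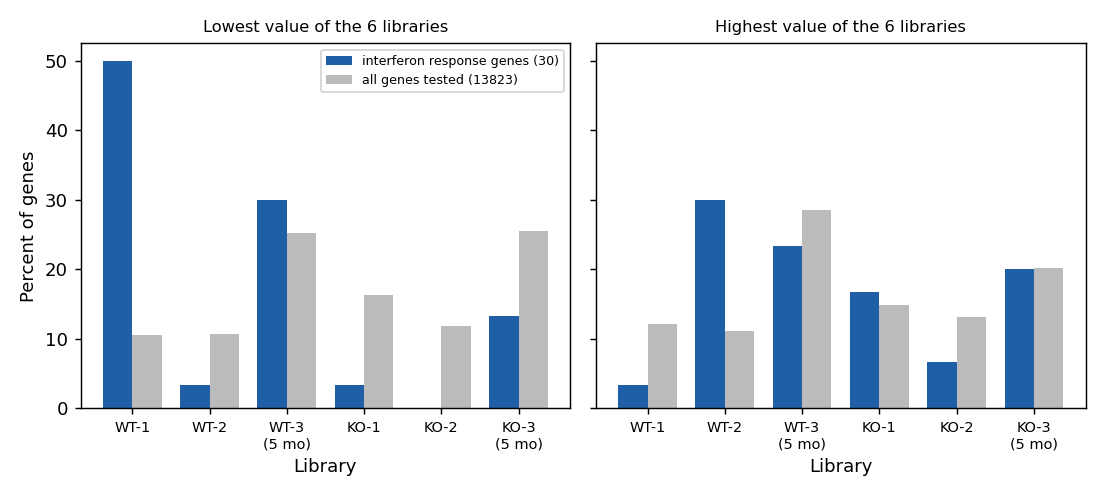
Share of genes for which each library held the lowest (left) or the highest (right) of the 6 values, for the 30 tested interferon response genes and for all 13823 genes tested. WT replicate 1 was lowest for 50% of the members against 10.6% of all genes, and WT replicate 2 highest for 30% against 11.1%.

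Among immune markers, the 12 macrophage genes summed to 4626 to 5419 in WT hearts and 3538 to 5541 in KO, and the 11 T and NK cell genes to 46.8 to 55.6 in WT hearts and 40.6 to 77.6 in KO. Only 2 of those 11 passed the low-value filter, and Cd3d, Gzmb and Ncr1 were at 0 in some libraries. The 6 B and plasma cell genes summed to 169.9 to 488 in WT, highest in WT replicate 1, and 228 to 278 in KO. The 6 dendritic cell genes summed to 97.6 to 164 and 135 to 153, and the neutrophil genes to 32.0 to 58.1 and 61.5 to 185, highest in the 5-month KO heart. The part of these cell types in the levels of the interferon response genes was not tested.

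Hearts of 5 months differed from those of 14 months in 7 of the 30 members, 4 higher and 3 lower. That is 23.3%, against 33.7% of all genes tested (16.0% higher and 17.7% lower), so the members' share was below the background. The same 7, and 44.7% of all genes, were under an unadjusted p of 0.05. The median difference was −0.02 on the log2 scale for the members and −0.02 for all genes, with 15 members on each side of 0 and 48.5% of all genes above it. The higher members were Ifi27l2a, Bst2, Gbp3 and Psmb8, and the lower ones were Oasl2, Irf7 and Cxcl9. Cell type markers were mixed by age. The 8 endothelial markers summed to 12400 and 10480 in the young WT and KO hearts and to 13687 to 17631 in the old ones. In the test 1 was higher and 4 lower, 62.5% against 33.7% of all genes. The 12 macrophage markers summed to 4972 and 3538 in the young hearts and 4069 to 5541 in the old ones. With 0 higher and 3 lower, 25% were called. Over all genes 33.7% were called in either direction and 17.7% as lower. The 7 cardiomyocyte markers summed to 1105160 in the young WT heart and 568153 to 653568 in the other libraries, with the young KO heart at 624254. Of these 3 were higher and 1 lower, 57.1%. No tested T and NK cell, B and plasma cell or erythroid marker was called by age. Called shares were 33.3% for fibroblast and dendritic cell markers, 16.7% for adipocyte markers and 100% for the 2 tested neutrophil markers. The part of these markers in the age differences of the interferon response genes was not tested.

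**Figure D4:**
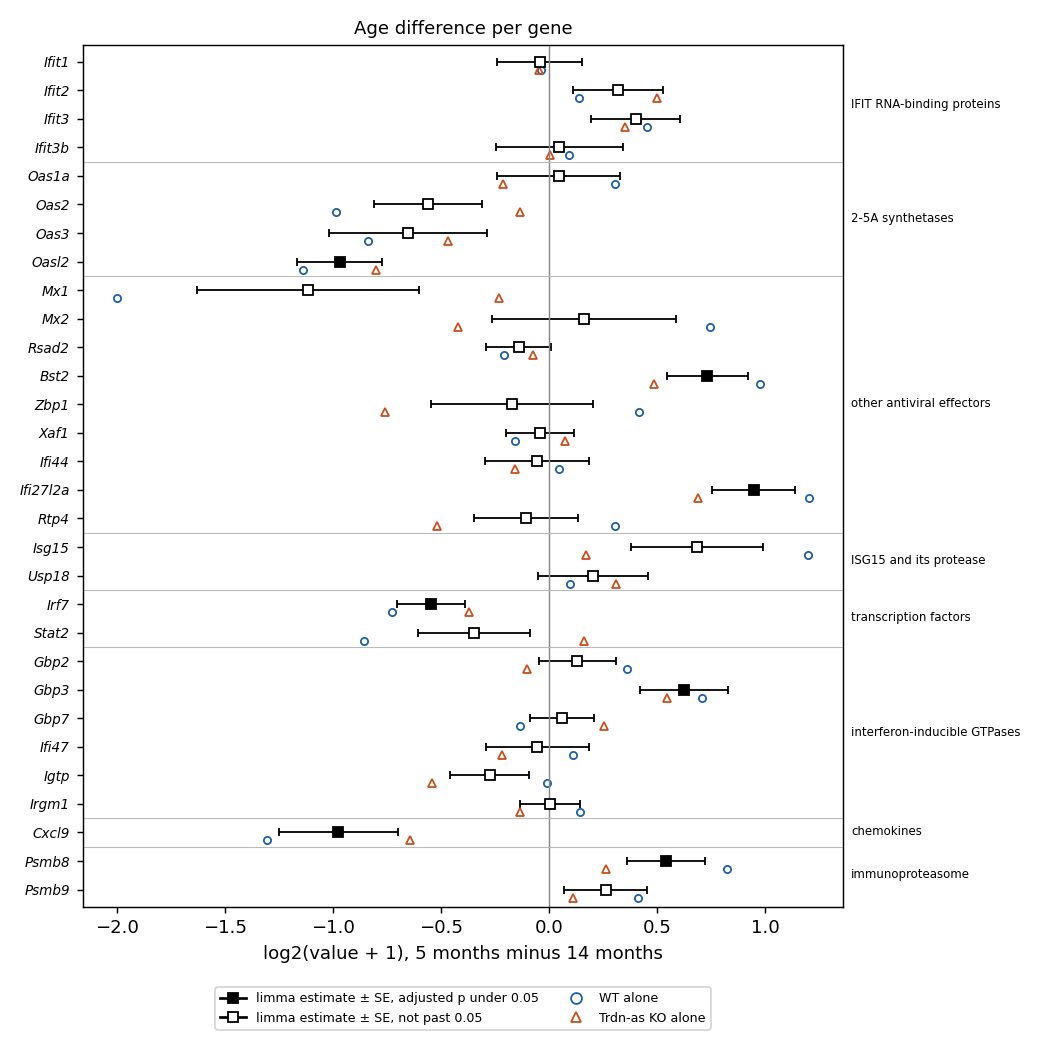
Difference between 5 and 14 months on the log2(value + 1) scale for each tested member, with the limma estimate and standard error (filled where adjusted p was under 0.05) and the difference within WT and within KO alone. The 4 filled points above 0 and 3 below 0 have WT and KO differences of one sign.

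Oasl2 gave the steadiest age difference. It read 205, 310, 299.8 and 292 in the 14-month hearts (WT replicates 1 and 2, then KO replicates 1 and 2) and 114 and 169.6 in the 5-month WT and KO hearts, and both young hearts were below all old ones. Its level fell by 0.97 on the log2 scale (SE 0.20, limma adjusted p = 0.00822), 0.511 of the 14-month level, and it passed the test in all 16 alternatives tried, with adjusted p from 0.00686 to 0.0483. Irf7, the transcription factor that amplifies type I interferon production, read 233, 238, 218 and 205 at 14 months and 142 and 163 at 5 months. It fell by 0.55 (SE 0.16, adjusted p = 0.0306), with no overlap between ages, but lost the call when any library other than KO replicate 3 was left out (adjusted p 0.0555 to 0.141). Cxcl9 fell by 0.97 (SE 0.28, adjusted p = 0.0286). Its young hearts, at 58.2 and 46.7, were below all old ones, of which KO replicate 1 was nearest at 62.0. Without WT replicate 1, 2 or 3 or KO replicate 2 its adjusted p was 0.0544 to 0.187.

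Ifi27l2a read 163, 209, 234 and 188 at 14 months and 426 and 339 at 5 months, a rise of 0.95 on the log2 scale (SE 0.19, limma adjusted p = 0.00782). Bst2 read 161, 203, 178 and 215 at 14 months and 357 and 275 at 5 months, a rise of 0.73 (SE 0.19, adjusted p = 0.0199). In both genes the 5-month hearts were above all others and the WT heart was the higher of the pair. Without the 5-month WT heart their adjusted p was 0.0540 for Ifi27l2a and 0.134 for Bst2, and Bst2 also lost the call without WT replicate 1 (0.0512) or KO replicate 1 (0.0511). Gbp3 rose by 0.63 (SE 0.20, adjusted p = 0.0467), from 139.7, 206, 182 and 237 to 277 and 304. Psmb8, the immunoproteasome subunit that replaces Psmb5, rose by 0.54 (SE 0.18, adjusted p = 0.0495), from 138, 152, 173 and 167 to 256 and 204. The ages did not overlap for either gene, yet leaving out 5 of the 6 libraries in turn ended the call, with adjusted p of 0.0534 to 0.179 for Gbp3 (all but WT replicate 2) and 0.0739 to 0.327 for Psmb8 (all but KO replicate 3).

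The young hearts were above all old hearts for 6 members (20.0%, against 25.0% of all genes), which adds Ifit3 and Psmb9 to those that passed the test. They were below all old hearts for 4 (13.3%, against 25.7%), which adds Oas3. Oas2, a double-stranded RNA sensor that makes the activator of RNase L, read 323, 436, 367 and 249 at 14 months and 189.5 and 275 at 5 months. The KO heart of 5 months lay within the older range, and the fitted difference of −0.56 (SE 0.25) had a limma adjusted p of 0.120. The direct comparison of males, replicates 1 and 3 only, kept Bst2, Ifi27l2a and Gbp3 as higher and Oasl2 as lower. Replicates 2 and 3, where age and sex differ together and cannot be told apart, kept Ifi27l2a, Oasl2 and Cxcl9.

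Gene length moved with the age difference. Across all genes tested, split into 5 equal bins by summed exon length, the median age difference was 0.27 on the log2 scale in the shortest bin (156 to 2505 bases) and −0.14 in the longest, and 29.8% and 9.94% of genes were higher at 5 months. Genes under 1000 bases (386 tested) had a median of 0.49, and 41.2% of them were higher. Ifi27l2a (463 bases), Isg15 (756 bases) and Bst2 (903 bases) were the 3 members that short. Over the 30 members Spearman's rho between length and age difference was −0.53, and over 13779 genes it was −0.21, as descriptions across genes that share the same 6 libraries. When a smooth length trend was removed from each library, an alternative chosen after seeing the data, the age difference of Ifi27l2a became 0.02 (limma adjusted p = 0.918) and that of Bst2 0.11 (0.626). Gbp3 (0.61), Psmb8 (0.54), Oasl2 (−0.84), Irf7 (−0.52) and Cxcl9 (−1.01) still passed the test. As deposited, Ifi27l2a and Bst2 rose by 0.95 and 0.73, beside the median of 0.49 for genes under 1000 bases. That median pools all lengths below 1000 bases and no spread was computed, so it gives no expected value at their lengths. The part of length in these differences was not tested beyond the removal of the trend.

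**Figure D5:**
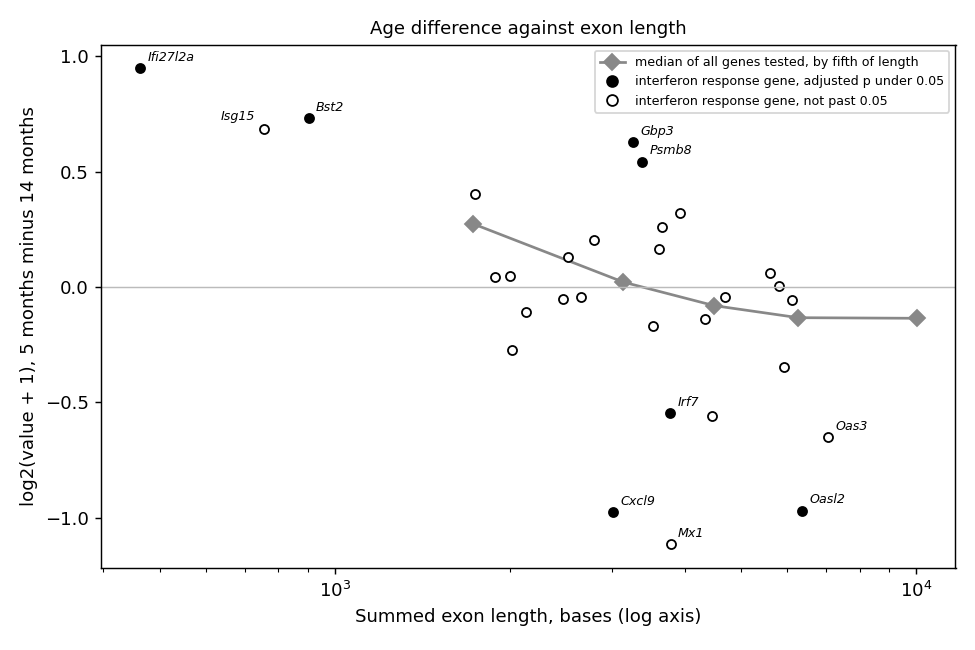
Age difference on the log2(value + 1) scale against summed exon length (logarithmic axis); circles are the 30 tested members, filled where adjusted p was under 0.05, and diamonds are the medians of all genes tested in 5 equal length bins. The medians run from 0.27 in the shortest bin to −0.14 in the longest, and Ifi27l2a and Bst2 lie at the short end above 0.

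No member passed the test of whether the genotype difference depended on age (smallest limma adjusted p = 0.152, 1 member under an unadjusted p of 0.05), where 2.08% of all genes passed (0.883% positive and 1.19% negative) and 23.2% were under the unadjusted value. Stat2 had that smallest p: its same-number differences were 0.24, −0.19 and 1.05 on the log2 scale, and the interaction was 1.02 (SE 0.35). Isg15 went the other way, at 0.58, 0.25 and −0.61, with an interaction of −1.03 (SE 0.46, adjusted p = 0.234). Mx1, next to Mx2 on chromosome 16, read 3.96 in the 5-month WT heart and 12.3 to 20.2 in the other 5, with an interaction of 1.77 (SE 0.78, adjusted p = 0.229). At 5 months each genotype was 1 heart, so all of these rest on a single pair.

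Near-identical copies limit some of the levels. Of the 31-base words in Ifit3 transcripts 61.8% also stood in Ifit3b, and 68.7% of those in Oas1a also stood in Oas1g, so how reads were divided between them is uncertain. The sums of Ifit3 and Ifit3b, 160, 256 and 259 in WT hearts and 222, 274 and 295 in KO, again had WT replicate 1 lowest. On this sum KO replicate 2 (274) was above the 5-month WT heart (259), so the young hearts, unlike for Ifit3 alone, were not both above all old ones. Oas1a and Oas1g together gave 68.4, 120 and 105 in WT hearts and 109, 110 and 83.6 in KO. Bst2, Ifit2 and Oas2 shared no such word with another gene.

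Upstream in the pathway, the 9 receptors and kinases showed no called member in any of the 3 comparisons; Ifngr2, a chain of the interferon gamma receptor, read 2329 to 2883 over the 6 libraries and Jak1, the kinase common to both receptors, 1969 to 2529. Ifng was the 1 ligand with a row, at 0 in 5 libraries and 1.83 in KO replicate 2. Of the 14 listed transcription factors and brakes 0 were higher and 3 lower at 5 months in limma. That is 21.4% called, against 33.7% of all genes (16.0% higher and 17.7% lower). Irf2, an IRF that competes at response elements, fell by 1.45 (SE 0.15, limma adjusted p = 6.0e-04), and Irf8, a factor of myeloid cells, by 0.84 (SE 0.23, adjusted p = 0.0232). Irf2 read 331, 387, 321 and 344 at 14 months and 134 and 118 at 5 months, with no overlap. Of 20 nucleic acid sensors and adaptors 2 were higher and 3 lower, 25% called by age against 33.7% of all genes. Ddx58, the RIG-I helicase, fell by 0.87 (SE 0.14), and Tmem173, the STING adaptor, by 1.06 (SE 0.23), while Rnaseh2c, a subunit that removes RNA from DNA hybrids, rose by 1.38 (SE 0.19). Summed exon length was 1715 bases for Rnaseh2c, 7396 for Irf2, 7055 for Irf8, 7050 for Ddx58 and 2741 for Tmem173. The part of length in these age differences was not tested.

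Downstream, 54 other interferon-induced genes were listed and 50 tested: 2 were higher and 9 lower at 5 months, 22% called against 33.7% of all genes (16.0% higher and 17.7% lower), and 0 differed by genotype (30 above and 20 below 0, median 0.14). Ifi203, of the IFI200 family of nuclear DNA-binding proteins, fell by 1.69 (SE 0.11) and Lgals3bp, a secreted galectin-binding glycoprotein, by 1.94 (SE 0.13). Of 17 class I presentation genes 2 were higher and 2 lower at 5 months, 23.5% against the same 33.7%. Erap1, which trims peptides, fell by 1.16 (SE 0.11), Tap2, a chain of the peptide transporter, by 0.85 (SE 0.13), and Psmb10, the third inducible proteasome subunit, rose by 0.75 (SE 0.16). Psme1, a proteasome activator subunit, was the 1 gene of these lists to pass the interaction test (−1.09, limma adjusted p = 0.0468), at 1173, 1066 and 1959 in WT hearts and 1057, 1242 and 942 in KO. With 1 heart per genotype at 5 months, the Psme1 interaction rests on a single pair, and interaction calls changed with the processing (below). The constitutive subunits that Psmb9, Psmb10 and Psmb8 replace, named after their values were seen, were, like Psmb10, higher at 5 months. The rises were 1.12 (SE 0.15) for Psmb6, 1.57 (SE 0.13) for Psmb7 and 1.43 (SE 0.14) for Psmb5, each on the log2 scale. Among these higher genes summed exon length was 1705 bases for Psmb10, 1872 for Psmb6, 3421 for Psmb7 and 899 for Psmb5. Among the lower ones it was 7280 for Erap1, 6706 for Ifi203, 3781 for Tap2 and 2847 for Lgals3bp. The part of length in these differences was not tested.

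Across libraries the members did not follow 1 common course. With each member standardised over the 6 libraries, the mean profile was −0.86, 0.31 and −0.08 in WT hearts and 0.24, 0.30 and 0.09 in KO. As a description over 6 libraries that share their normalisation, members correlated with that profile from −0.35 (Oas3) to 0.95 (Ifit3b). The profile includes each member, which raises these values. Outside the list Baiap3, Capn6, Epha1, Bbs2 and Plk2 followed it most closely (Pearson 0.993 to 0.948), all with their lowest value in WT replicate 1. They were picked from all genes tested over only 6 libraries. Baiap3, Capn6 and Epha1 read 15.2 or less in every library, near the filter value of 10.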

How the data were processed

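RNA sequencing of 6 hearts was compared, grouped by genotype and age from the labels. The authors used Salmon 1.5.2 and mm10, per the submitters' processing notes, and how they scaled its output is not given in the sources used here. What they deposited is a normalised signal per gene, not whole reads (3.71 to 5.12% of low values were whole multiples of the commonest one, tolerance 0.01), so depth is unknown. Identifiers were matched to GENCODE M21 (20122 matched, 132 not), and 108 lines without values were left out.

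limma 3.58.1 in R 4.3.3 (trend and robust options) was run on log2(value + 1) for genes at 10 or more in at least 3 libraries, with Benjamini-Hochberg adjustment over all genes tested; it was tested on simulated data. Genotype was fitted with age as covariate and the reverse, and their interaction separately. Fold changes of low genes are understated on this scale. SE is limma's, SD is over a group's values.

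Same-number libraries correlated after removal of the gene mean (0.220, 0.225 and 0.406), but they share an age, and other pairs of 14 months gave 0.208 to 0.382; the labels state no pairing. The members and lists were chosen with earlier results of these data known. Members with values in every library are those past adjusted p 0.05, the 10 of smallest p by genotype and the highest per length in each role. From other lists, up to 4 genes past the threshold were taken by p, or the 2 most abundant; 1 result is not reported here. Alternatives were pseudocounts, filter, scaling, limma options, limma-voom, covariates, subsets of replicates and each library left out.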

Additional observations from a re-analysis of the deposited data

Results flagged for a closer look

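Among the 4 hearts of 14 months, WT replicate 1 lay far from the others in 2 of the 30 tested members, by the gap to its nearest neighbour over the range (above Dixon's 95% critical value for 4 samples). Oasl2 read 205.3 there, with the nearest library at 292 (gap 0.834 of the range). Gbp2, a guanylate-binding GTPase, read 244.23 there, with the nearest at 328 (0.950 of the range). Chance alone gives about 1 such case in 20 genes.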

How the results depend on the processing

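No interferon response gene passed the genotype test under any alternative run, and no direction of a called gene reversed. With the replicate block 0 genes passed and the smallest adjusted p of a member was 0.886 (limma); the block changed no genotype call. Genes passing by genotype numbered 14 in the 14-month hearts and 0 to 5 with 1 library left out. Genes passing by age, 4663, numbered 3011 in replicates 1 and 3, 2078 in replicates 2 and 3 and 3246 to 4533 with 1 library left out. Members higher at 5 months, 4, numbered 2 with no filter, 2 without the trend and robust options, 2 with the length trend removed, 1 in replicates 2 and 3 and 0 to 4 with 1 library left out. Members lower, 3, numbered 1 in replicates 1 and 3 and 1 to 6 with 1 library left out. Genes passing the interaction test, 287, numbered 4 with no filter, 12 with quantile normalisation, 7 without those options, 5 with limma-voom, 153 with the length trend removed and 13 to 234 with 1 library left out. The members' median age difference was −0.15 on the log2 scale without WT replicate 1, and quantile normalisation put 20 members above and 10 below 0 (median 0.05). The cause was not tested in any of these. Where leaving out a 5-month heart left 1 library in an arm, that library was assumed to vary like the others.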
